A study of Homo sapiens with 4 samples.

Results

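Monoamine synthesis, storage and breakdown was followed through 8 of the 19775 genes named on the arrays. They are DDC, TH, TPH1 and GCH1 of synthesis, SLC18A1 and SLC18A2 of storage, and MAOA and MAOB of breakdown. All probe sets that the platform annotation pairs with exactly 1 of these symbols were taken, which gave 16 probe sets. The RNA came from NCI-H209 and Lu139, both human small cell lung cancer cell lines. Cells of each line were electroporated with control siRNA (siNTC) or with siRNA for TTF-1 (siTTF-1), a lung and thyroid homeodomain factor encoded by NKX2-1. The question of the series is which genes this factor regulates. There were 4 groups with 1 array in each. A difference between the siRNAs in a line thus has no replicate, and the siRNA is replicated only across the 2 lines. The labels name neither the siRNA sequences nor the time from electroporation to RNA extraction. The arrays read bulk RNA, in which fewer cells that express a gene and less RNA per cell cannot be told apart.

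Monoamines are made from aromatic amino acids. Tyrosine hydroxylase (TH) and tryptophan hydroxylase (TPH1) carry out the rate-limiting first steps towards catecholamines and serotonin, with tetrahydrobiopterin as cofactor, and GCH1 encodes GTP cyclohydrolase, which starts the synthesis of that cofactor. DDC encodes aromatic L-amino acid decarboxylase, which turns L-DOPA into dopamine and 5-hydroxytryptophan into serotonin and is a classical marker of neuroendocrine lung tumour cells. The vesicular transporters SLC18A1 and SLC18A2 load monoamines into secretory granules and synaptic vesicles, and the mitochondrial outer membrane enzymes MAOA and MAOB oxidise them.

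DDC is the member that the siRNA results turn on, so the sequence before its transcription starts is shown. RefSeq (GRCh38.p14) lists 2 starts of DDC, 4334 bases apart on the minus strand of chromosome 7. The 250 bases before the distal start lie at chr7:50565406-50565655 and those before the proximal start at chr7:50561072-50561321. They are printed 5′ to 3′ with the letters CTCAAG, the core of the classical TTF-1 site, in capitals where they occur on either strand (CTTGAG on the other).
DDC distal start: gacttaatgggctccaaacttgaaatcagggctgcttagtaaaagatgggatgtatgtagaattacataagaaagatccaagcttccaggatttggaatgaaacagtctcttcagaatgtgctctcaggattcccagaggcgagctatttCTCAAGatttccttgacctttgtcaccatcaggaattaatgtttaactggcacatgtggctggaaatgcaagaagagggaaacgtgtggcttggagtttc
DDC proximal start: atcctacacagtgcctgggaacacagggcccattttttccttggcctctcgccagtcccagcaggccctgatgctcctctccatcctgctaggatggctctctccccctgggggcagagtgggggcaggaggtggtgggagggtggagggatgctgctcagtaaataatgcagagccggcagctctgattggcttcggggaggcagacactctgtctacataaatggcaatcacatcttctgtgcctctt
The CTCAAG letters occur once before the distal start, from 100 to 95 bases upstream of it, and not in the proximal window. Of 35116 windows of this length before all RefSeq starts in the table, 10.4% hold these letters on either strand, so a match of this kind is common and is a description of the letters alone. No CTCAAG was found in the windows of TPH1, SLC18A2, MAOA or MAOB, the other members matched in the table. The cAMP response element letters TGACGTCA, searched on both strands, occur in 1.65% of all windows and lie from 48 to 41 bases before the start of SLC18A2. The arrays do not report which DDC start was used.

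The targeted transcript was measured first. On NKX2-1 probe set 211024_s_at the intensity was 596 with siNTC and 243 with siTTF-1 in NCI-H209, then 780 and 461 for Lu139, which is 40.7% and 59.1% of control. The other probe set, 210673_x_at, stood at 64.6% of its control value in NCI-H209 and at 55.3% for Lu139. The NKX2-1 transcript was thus lower after siTTF-1 in both lines on both probe sets. Of the neuroendocrine markers chosen to check the lines, all 6 that were measured (INSM1, CHGA, SYP, NCAM1, DLL3 and UCHL1) were above the expression limit in both lines. Probe sets of POU2F3 and YAP1, which mark other forms of small cell cancer, were below it in both. Of the marker genes of other cell types, 2 of 4 for leukocytes, 2 of 4 for fibroblasts and 2 of 3 for endothelium were above it in each line. The summed intensity of the leukocyte list ran from 134 to 185 over the arrays, that of the fibroblast list from 376 to 470 and that of the endothelial list from 169 to 228, against 19764 to 27006 for the neuroendocrine list. The largest parts of the neuroendocrine sum were UCHL1 (9663 to 13846) and INSM1 (4742 to 9183). SYP read 77.2 to 112, below COL1A1 of the fibroblast list (217430_x_at, 259 to 362). The lists differ in length and heights of different probe sets are not comparable, so the sums are a rough guide. The leukocyte marker PTPRC was below the limit in both lines, while CD3E (63.7 to 88.6) and CD14 (41.9 to 69.9) were above it. The part of such signal in the results was not tested. Passing the limit thus does not by itself show expression. Where above it, the members TH (37.9), SLC18A2 (47.1 to 53.7) and MAOA (38.9 to 70.4) read within or below the range of CD3E. The limit was an intensity of about 37.0, applied to the mean of a line's 2 arrays on the log2 scale, and the median intensity of an array ran from 48.4 to 57.7.

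DDC stood at a lower level after siTTF-1 in NCI-H209 and at nearly the same level in Lu139. On probe set 205311_at its intensity was 5574 with siNTC and 2197 with siTTF-1 in NCI-H209, and 6280 with siNTC and 6280 with siTTF-1 in Lu139. Probe set 214347_s_at read 910 with siNTC and 402 with siTTF-1 in NCI-H209, then 1770 and 1682 for Lu139. On both probe sets the siTTF-1 array of NCI-H209 was therefore the low value among the 4 arrays. The level after siTTF-1 was 39.4% of control on 205311_at and 44.2% on 214347_s_at in NCI-H209, against 95% on 214347_s_at in Lu139.

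**Figure D1:**
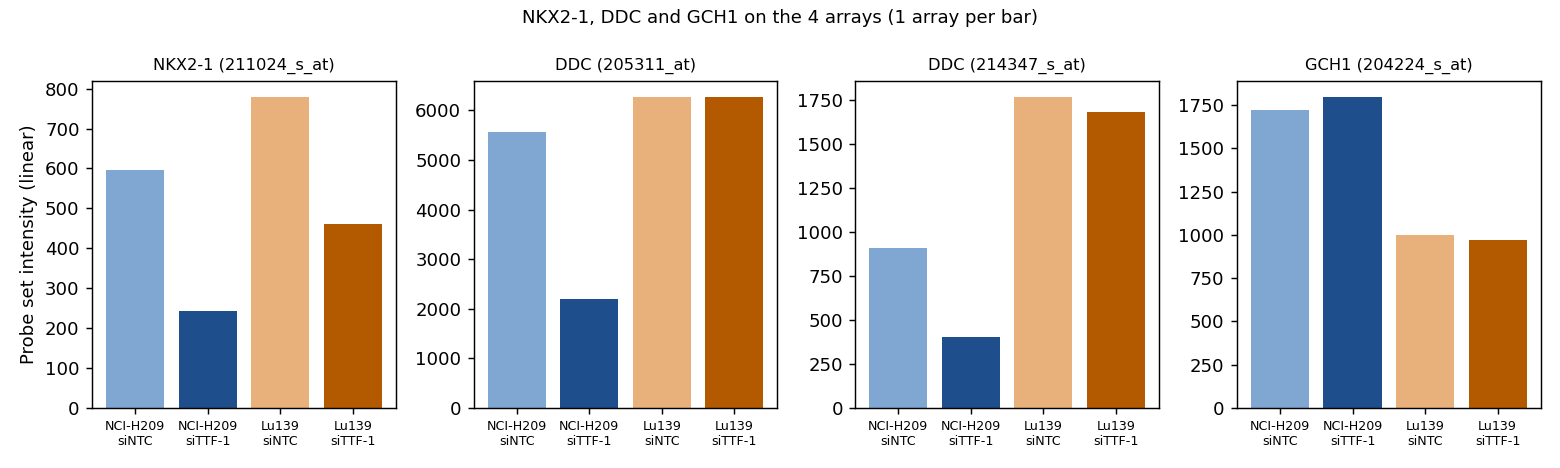
Linear probe set intensity (vertical axes from 0) on each of the 4 arrays, 1 bar per array, for NKX2-1 (211024_s_at), both DDC probe sets and GCH1 (204224_s_at). NKX2-1 is lower after siTTF-1 in both lines, DDC is lower in NCI-H209 (5574 to 2197 on 205311_at) with nearly equal bars in Lu139, and the GCH1 bars of a line are close to each other.

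On the log2(value + 18.7) scale, where changes of dim probe sets come out smaller, the fold change of DDC (siTTF-1 minus siNTC) was -1.34 in NCI-H209 and 0.00 in Lu139 on 205311_at. On 214347_s_at it was -1.14 and -0.07. These were the 2 member probe sets past 1.5-fold in NCI-H209, of the 4 above the limit there, and both read the same gene. Over all probe sets above the limit in NCI-H209, 3.51% were lower by 1.5-fold or more, and 0.653% by 2-fold or more. The DDC values ranked 63 (205311_at) and 138 (214347_s_at) from the lowest of 33209 probe sets. In Lu139 none of the 6 member probe sets above the limit was past 1.5-fold in either direction, where 1.77% of all 31324 probe sets were. Differences within a line have no test, because each rests on 1 array per siRNA.

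Across both lines the mean log2 fold change of DDC was -0.67 ± 0.94 (SD, n = 2 lines) on 205311_at, with a limma 95% confidence interval from -1.29 to -0.05. On 214347_s_at it was -0.61 ± 0.75 (SD, n = 2 lines), with a limma interval from -1.14 to -0.08. Neither passed limma over the 32746 probe sets tested, with adjusted p = 0.303 and adjusted p = 0.286. Before adjustment both were lower at a limma p under 0.05, as were 9.29% of all probe sets, while 5.88% were higher. Limma called 0 probe sets (0%) at an adjusted p under 0.05 in either direction over the whole table, and NKX2-1 did not pass either (adjusted p = 0.116 on 211024_s_at and 0.122 on 210673_x_at). With the 4 arrays quantile-normalized it called 52 lower and 13 higher, neither DDC probe set among them. The SD of the DDC values between lines was larger than their mean. Limma draws its variance largely from other probe sets (1 residual and 5.95 prior degrees of freedom). Its intervals are therefore narrower than the 2 line values alone would give. In Lu139 the value was 0.00 on 205311_at and -0.07 on 214347_s_at, so an interval below 0 does not show a decrease shared by both lines.

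Whether the DDC change differs between the lines could not be tested, since 4 arrays leave no residual degree of freedom for an interaction. As a description, the log2 fold change in NCI-H209 minus that in Lu139 was -1.34 on 205311_at, the 4th lowest value (rank 4) among the 29008 probe sets above the limit in both lines. On 214347_s_at it was -1.07, at rank 29. NKX2-1 itself was lower in both lines, at 59.1% and 55.3% of control in Lu139 on its 2 probe sets.

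**Figure D2:**
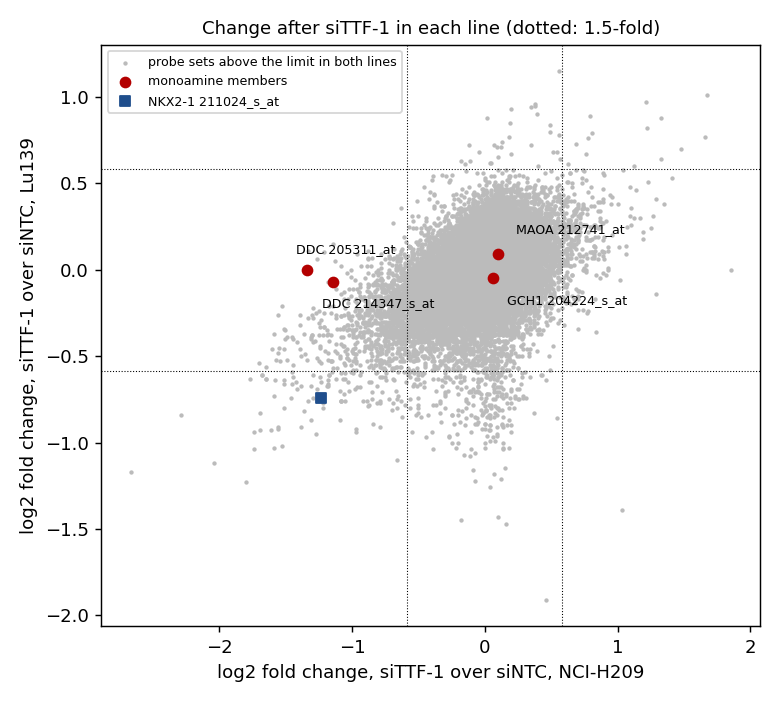
Log2 fold change of siTTF-1 over siNTC in NCI-H209 (horizontal) against Lu139 (vertical) for the 29008 probe sets above the limit in both lines (grey), the monoamine probe sets among them (red) and NKX2-1 (blue square), with dotted lines at 1.5-fold. Both DDC probe sets lie left of -1 at a Lu139 value near 0, while GCH1 and MAOA lie close to the origin.

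The genes whose 4 array values, centred on their mean, lay closest to those of DDC 205311_at were RPN2, a subunit of the oligosaccharyltransferase of the endoplasmic reticulum, DZIP1, a gene of cilium formation, and the antisense RNA PRR34-AS1. Their root mean square distances over the 4 arrays were 0.12, 0.14 and 0.14 on the log2 scale. RPN2 (213399_x_at) had intensities of 4225 and 1766 in NCI-H209, then 5955 and 5027 for Lu139. Its log2 fold changes were -1.25 and -0.24, those of DZIP1 (204557_s_at) -1.25 and -0.31, and those of PRR34-AS1 (238058_at) -1.27 and -0.25. All 3 had a lower Lu139 value after siTTF-1 than with siNTC, where DDC 205311_at had a log2 fold change of 0.00. Likeness over 4 arrays is a weak measure and has no test.

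GCH1 was well expressed in both lines and differed little between the siRNAs. On its only probe set, 204224_s_at, the intensity was 1722 with siNTC and 1800 with siTTF-1 in NCI-H209, and 1002 and 968 in Lu139. The log2 fold changes were 0.06 and -0.05, with a mean of 0.01 ± 0.08 (SD, n = 2 lines) and a limma interval from -0.21 to 0.23 (adjusted p = 0.98). With each array scaled to the same median that mean was -0.03, so its sign is not settled. The interval leaves out a change as large as that of DDC in NCI-H209, if it were shared by both lines.

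The hydroxylases that precede DDC were at or under the expression limit. TH (208291_s_at) read 22.8 and 26.4 in NCI-H209, below the limit, and 37.9 on both arrays of Lu139, just above it. The Lu139 values of TH were exactly equal, as were those of 2206 probe sets in this line. TPH1 was below the limit on all 3 of its probe sets in both lines. Its intensities ran from 9.91 on 214601_at in Lu139 after siTTF-1 to 21.6 on the same probe set in control NCI-H209. TPH2, the neuronal tryptophan hydroxylase, read 7.77 and 7.15 in NCI-H209, then 7.11 and 8.80 for Lu139 (1555332_at). So DDC was bright in cells in which no probe set of TH, TPH1 or TPH2 stood clearly above the limit.

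Of the vesicular transporters, SLC18A2 was above the limit only in Lu139 and SLC18A1 in neither line. SLC18A2 on 205857_at read 39.3 with siNTC and 31.0 with siTTF-1 in NCI-H209, and 53.7 and 47.1 in Lu139. Its log2 fold changes were -0.22 and -0.14, a mean of -0.18 ± 0.06 (SD, n = 2 lines), and it did not pass limma (adjusted p = 0.38). The other SLC18A2 probe set, 1553328_a_at, had intensities from 13.0 to 19.4 and log2 fold changes of 0.05 and 0.04, so the probe sets differed in sign. SLC18A1 (207074_s_at) ran from 10.4 in control NCI-H209 to 17.8 in Lu139 after siTTF-1.

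The monoamine oxidases were low. MAOA on 212741_at read 38.9 with siNTC and 42.9 with siTTF-1 in NCI-H209, and 65.2 and 70.4 in Lu139. The log2 fold changes of 0.10 and 0.09 gave a mean of 0.09 ± 0.01 (SD, n = 2 lines), which did not pass limma (adjusted p = 0.644). The other 2 MAOA probe sets were below the limit, from 6.93 to 14.3. MAOB was below the limit in both lines on all 3 probe sets, the brightest of which, 204041_at, read 34.9 and 36.8 in NCI-H209, then 32.8 and 38.7 for Lu139. In all, 10 of the 16 member probe sets were above the limit in neither line, with intensities from 4.78 to 38.7. TPH1, SLC18A1 and MAOB had no probe set above it, and TH had none that was tested across lines. For these no change can be read at this signal over background.

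**Figure D3:**
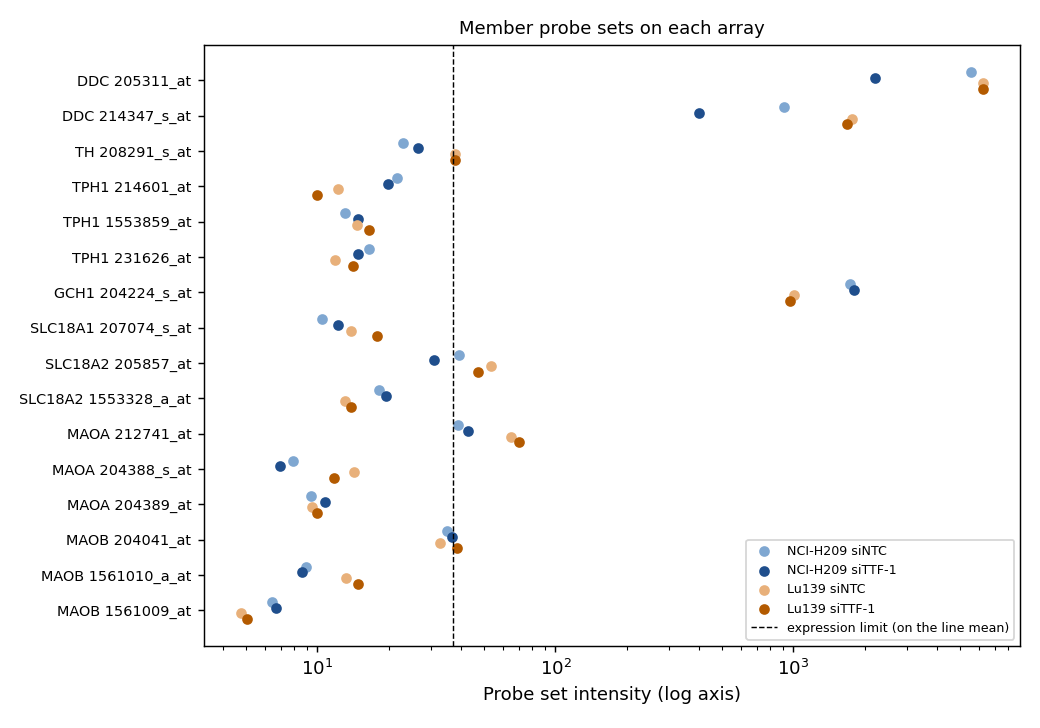
Intensity of the 16 member probe sets (log axis) on each of the 4 arrays, 1 point per array, with the expression limit of about 37.0 as a dashed line. DDC and GCH1 lie far above the limit, MAOA 212741_at just above it, SLC18A2 205857_at above it on both arrays in Lu139 alone, and the probe sets of TPH1 and SLC18A1 below it. Heights of different probe sets are not comparable.

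The level of the tested members also differed between the lines. All 5 tested probe sets passed limma for Lu139 against NCI-H209, 4 of them higher and 1 lower in Lu139, where 68.0% of all 32746 probe sets passed (19.2% higher and 48.8% lower). A call in this comparison is therefore near the background. Each line stands on its siNTC and siTTF-1 arrays alone, with no further replicate of either line. With the siRNA as a term, the limma p-values and intervals for the line rest on how far the line difference varies between the siRNAs. They also draw on the spread of other probe sets, and not on replicates of a line under the same siRNA. The median over all tested probe sets was -0.25 on the log2 scale as deposited and 0.05 after quantile normalization over the 4 arrays, and the share of lower among all calls went from 71.7% to 46.6%, or to 56.7% with arrays scaled to the same median. The line differences of members are therefore also given relative to that median, as deposited and after quantile normalization over the 4 arrays.

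DDC was higher in Lu139 on both probe sets. On 214347_s_at the log2 difference was 1.48, with a limma interval from 0.95 to 2.01 (adjusted p = 8.53e-04), which is 1.73 relative to the median as deposited and 1.89 after quantile normalization. On 205311_at it was 0.84, with a limma interval from 0.22 to 1.46 (adjusted p = 0.0239), or 1.09 and 1.17 relative to the median. This mean hides unequal parts. Between the siNTC arrays the difference on 205311_at was 0.17, with intensities of 5574 and 6280, and between the siTTF-1 arrays it was 1.51. On 214347_s_at the corresponding differences were 0.95 and 2.01, so the probe sets differed on how far apart the control cells were.

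GCH1 was lower in Lu139, by a log2 difference of -0.83 (limma interval -1.05 to -0.60, adjusted p = 1.93e-04). It was -0.77 between the siNTC arrays and -0.88 between the siTTF-1 arrays. Relative to the median of all probe sets it was -0.58, or -0.41 after quantile normalization. MAOA 212741_at was higher in Lu139 by 0.54 (adjusted p = 0.00141 in limma), or 0.79 and 0.67 relative to the median. SLC18A2 205857_at was higher in Lu139 by 0.36 (adjusted p = 0.00872 in limma), or 0.61 and 0.45. Their other probe sets, below the limit and not tested, did not all go the same way. SLC18A2 1553328_a_at had -0.22, MAOA 204388_s_at 0.28 and MAOA 204389_at -0.02. The lower of the compared levels of MAOA and SLC18A2 lie at the expression limit, so the size of these differences depends on the pseudocount.

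A wider list of 77 genes of monoamine biology was examined beside the members, which it includes. Of these, 69 had a probe set, and 63 probe sets of 45 genes were tested. None passed limma for siTTF-1 in either direction, where 0% of all 32746 probe sets did. At an unadjusted limma p under 0.05, 6 were lower and 3 higher, near the shares of 9.29% and 5.88% over all probe sets. Named after their values were seen, the lower ones were both probe sets of DDC, 3 of NR4A2 and 1 of PCBD2, which encodes a dehydratase that recycles the cofactor (223712_at, -0.51 and -0.14). The higher ones were 1 each of GATA2, HTR3A and HTR1B. The median log2 fold change of the list was 0.01 in NCI-H209 and 0.06 in Lu139, against 0.01 and 0.02 for all probe sets above the limit. Past 1.5-fold there were 2 probe sets in NCI-H209, both of DDC and lower, where 3.51% of all probe sets were lower by that much, and none in Lu139.

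No cofactor gene passed limma for siTTF-1, but neither did any of the 32746 probe sets tested, so this does not set these genes apart. PTS and SPR, which complete tetrahydrobiopterin synthesis, had log2 fold changes of -0.05 and -0.02 for PTS (209694_at) and 0.00 and 0.20 for SPR (203458_at) in NCI-H209 and Lu139. QDPR, which regenerates the cofactor, had 0.09 and 0.23 on 209123_at. PCBD1, a dehydratase of the same recycling route, had -0.04 and 0.21 (203557_s_at). PCBD2, given above for 223712_at, had 0.00 and -0.20 on its other tested probe set, 1554894_a_at. GCHFR, the feedback regulator of GTP cyclohydrolase, had -0.08 and 0.01 (204867_at) and was the list member with the widest gap between the lines, with 565 and 534 for NCI-H209 but 27.0 and 27.2 for Lu139. It was singled out after its values were seen. DBH, which turns dopamine into noradrenaline (206450_at, 59.5 to 75.2 over the arrays), and PNMT, which methylates noradrenaline to adrenaline (206793_at, 63.0 to 137), did not pass limma for siTTF-1 (adjusted p = 0.444 and 0.597).

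Among uptake and breakdown genes the dopamine transporter gene SLC6A3 (206836_at) read 231 and 291 in NCI-H209, then 105 and 114 for Lu139. Its log2 fold changes were 0.31 and 0.11 (limma adjusted p = 0.411). SLC18B1, a vesicular polyamine transporter, had -0.05 and 0.08 (226301_at). SLC29A4, a plasma membrane monoamine transporter, had 0.13 and -0.09 on 1570124_at, but -0.03 and -0.09 on 227281_at. ALDH3A2, a fatty aldehyde dehydrogenase, had values from 0.23 to 0.30 in NCI-H209 and from 0.08 to 0.12 in Lu139 over its 3 probe sets, with limma adjusted p from 0.403 to 0.478. ALDH2, which oxidises aldehydes formed by the monoamine oxidases, had -0.09 and -0.12 (201425_at). ADH5 had -0.10 and -0.11 on 208847_s_at, but 0.04 and 0.05 on 208848_at. ODC1, the first enzyme of polyamine synthesis, had -0.30 and 0.04 (200790_at).

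Of the transcription factors of monoamine cells, NR4A2, which drives TH and other genes of dopamine neurons, had 3 tested probe sets, all with lower values after siTTF-1 in both lines. On 216248_s_at it read 92.6 and 57.3 in NCI-H209, then 716 and 525 for Lu139. Its log2 fold changes were -0.55 and -0.43 there, -0.45 and -0.37 on 204621_s_at, and -0.44 and -0.23 on 204622_x_at. The limma p ran from 0.00277 to 0.0217 before adjustment and from 0.157 to 0.26 after it, so NR4A2 did not pass. It was higher in Lu139 on all 3, by 1.73 to 2.78 on the log2 scale (limma adjusted p from 2.01e-06 to 1.05e-05).

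INSM1, a zinc finger factor of neuroendocrine cells, read 9183 and 7383 on 206502_s_at in NCI-H209, then 4750 and 4742 for Lu139. The log2 fold changes were -0.31 and 0.00. Its other probe set, 231558_at, had 0.00 and -0.01. GATA2 had 0.31 and 0.32 on 209710_at, but -0.08 and 0.11 on 207954_at. None of these passed limma. Among the receptors, DRD2 had -0.05 and 0.07 (216938_x_at), HTR4 0.14 and 0.21 (207578_s_at), and HTR5A -0.12 and 0.17 (221362_at). The receptor value farthest from 0 in NCI-H209, singled out after it was seen, was that of the serotonin-gated channel gene HTR3A, 0.51 and 0.21 on 216615_s_at (limma adjusted p = 0.224). Its other tested probe set, 217002_s_at, had 0.04 and 0.29.

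**Figure D4:**
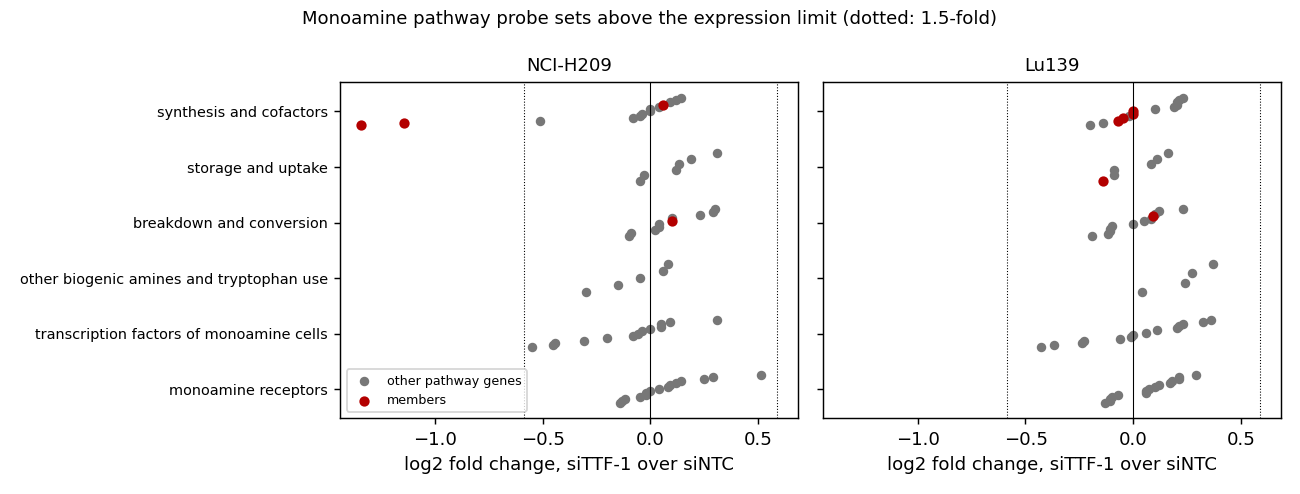
Log2 fold change of siTTF-1 over siNTC (horizontal) for probe sets of the 77-gene list, by functional group, with dotted lines at 1.5-fold. Each probe set above the expression limit in NCI-H209 (left) or Lu139 (right) is shown, with those of the monoamine members in red. TPH1, SLC18A1 and MAOB have none above the limit in either line and are not shown. The 2 DDC probe sets at -1.34 and -1.14 in NCI-H209 are the points past 1.5-fold, and no point passes it in Lu139.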

How the data were processed

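Values are the probe set intensities on a linear scale that the authors deposited, 1 column per array. The submitters' processing notes name Affymetrix Expression Console. How they were summarised and normalized, and the genome build, is not given in the sources used. Exactly equal intensities occurred for 2416 probe sets within NCI-H209 and 2206 within Lu139 but for 0 across lines, which values scaled separately per line could show, so line differences depend on scaling. Of 54675 probe sets, 62 controls were left out, and 41091 had exactly 1 symbol, 1801 several and 11721 none. Gene identifiers gave current symbols through RefSeq (GRCh38.p14, 41037 matched). Upstream windows came from RefSeq's table, which matched 5 members of those looked up.

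Intensities were taken as log2(value + 18.7), the 25th percentile as pseudocount. The expression limit was the 40th percentile of mean log2 values (5.80). Limma 3.58.1 (R 4.3.3) fitted line and siRNA on 4 arrays with a variance trend, 1 residual and 5.95 prior degrees of freedom and Benjamini-Hochberg adjustment over 32746 probe sets, two-sided at 0.05. In the siRNA test the line is the block, since both arrays of a line share it. In the line comparison those arrays are the only replicates of a line. P-values rest on the spread between these 4 arrays, for a probe set itself and, through the prior, for the other probe sets. That spread may be technical. Within a line 1.5-fold and 2-fold were sizes, not tests. The procedure was run on simulated data with the same noise for every probe set, set below the root mean square spread of these data. That run does not show how it performs on these arrays. Alternatives varied pseudocount, filter, scaling, probe set averaging and model terms. Named genes were the members, NKX2-1, list genes past 1.5-fold, up to 3 genes of each list group by level, and the 3 genes nearest DDC in pattern. Not every one is named in the text. Members, lists and motifs were chosen with earlier results of these data known. Figures used matplotlib 3.10.9 (Python 3.11.15).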

Additional observations from a re-analysis of the deposited data

Results flagged for a closer look

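GCH1 (204224_s_at) had opposite signs after siTTF-1 in the 2 lines, at 0.06 for NCI-H209 but -0.05 for Lu139 on the log2 scale. The difference was not tested, as 1 array stood for each line and siRNA.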

How the results depend on the processing

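Of 178 recomputed values of the 5 tested member probe sets, 176 were counted as unchanged. The count takes in values with a line or an siRNA left out, which have no adjusted p and did not all keep their direction. Without NCI-H209 the GCH1 value for siTTF-1 was -0.05, against 0.01 in the main fit, and that of DDC 205311_at was 0.00, against -0.67. DDC on 205311_at in NCI-H209 ran from -1.36 to -1.24 over the alternatives and on 214347_s_at from -1.24 to -1.09, and in Lu139 from -0.04 to 0.00 and from -0.11 to -0.04. Its limma adjusted p for siTTF-1 ran from 0.229 to 1 and from 0.212 to 1, the highest without the line term (no replicate block), a fit in which limma also called 0 probe sets. The mean over lines rests on NCI-H209: without Lu139 or without NCI-H209 it was -1.34 or 0.00 on 205311_at and -1.14 or -0.07 on 214347_s_at. The values counted as changed were from DDC 205311_at in Lu139 against NCI-H209 and from GCH1 for siTTF-1. With no siRNA term DDC kept 0.84 but not the call (limma adjusted p = 0.12, in a range from 0.00194 to 0.12). With arrays scaled to the same median GCH1 was at -0.03. The cause was not tested.

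The 0 calls for siTTF-1 in limma became 52 lower and 13 higher with quantile normalization of all 4 arrays, and 41 lower and 5 higher with arrays scaled to the same median. DDC was not among them (limma adjusted p from 0.212 to 0.235 over both settings and probe sets). Quantile normalization also gave 10235 lower and 11738 higher calls between the lines, against 15972 and 6294. The cause was not tested. With probe sets averaged per gene, which tests fewer features, line calls were 7232 and 2531. The features past 1.5-fold were then 320 lower and 83 higher in NCI-H209, against 1164 and 373, and 53 and 14 in Lu139, against 503 and 50. Intensities near the limit bound what can be read for TH, TPH1, SLC18A1, SLC18A2, MAOA and MAOB.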

Other observations

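The genes next to DDC on the chromosome, looked up after the DDC values were seen, were close to their control levels. FIGNL1 (222843_at) read 1386 and 1334 in NCI-H209, then 1102 and 1133 for Lu139. Its log2 fold changes were -0.05 and 0.04. GRB10, an adaptor of insulin receptor signalling, had 0.08 and 0.00 on 209409_at. Neighbours of the other members were looked up as well, and PDZD8 and LPL were picked from them with the values in view. PDZD8, the neighbour of SLC18A2, is an endoplasmic reticulum tether protein gene. It had lower values after siTTF-1 on all 4 of its probe sets in both lines. None of them passed limma (adjusted p from 0.212 to 0.356). In NCI-H209, 3.51% of all probe sets above the limit were lower by 1.5-fold or more. On 230416_at PDZD8 read 1305 and 675 in NCI-H209, then 940 and 801 for Lu139. The log2 fold changes were -0.93 and -0.23. LPL, the lipoprotein lipase gene next to SLC18A1, read 30.4 and 36.4 in NCI-H209, then 549 and 515 for Lu139, on 203549_s_at.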
